A study of Mus musculus with 6 samples.

Results

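The 10 genes described here encode members of the Cyp4 family of cytochrome P450 enzymes and were taken by gene name from a table of RNA sequencing counts for 23631 mouse genes. They comprise 6 genes of the Cyp4a subfamily (Cyp4a10, Cyp4a14, Cyp4a31, Cyp4a32, Cyp4a12a and Cyp4a12b), 3 of the Cyp4f subfamily (Cyp4f13, Cyp4f14 and Cyp4f15) and Cyp4v3. The table holds 21 Cyp4 genes in all. Expression was measured in whole liver from male mice of the inbred strain C57BL/6J, for which the labels name no engineered allele. The tested libraries came from 3 samples labelled as fasted for 48 h, and they were set against 3 samples labelled as refed. The treatment protocol speaks of mice fed normally or fasted, so it is not settled whether the refed mice had been fasted first. The labels give neither the age of the mice nor whether each library came from a separate animal. P-values here reflect only how far these samples spread, which may be technical. The comparison asks which transcripts of the family differed in level between fasted and fed liver.

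Enzymes of the Cyp4 family add a hydroxyl group to the terminal carbon of fatty acids, a step called omega-hydroxylation. Alcohol and aldehyde dehydrogenases can then oxidise the product to a dicarboxylic acid, which is shortened in peroxisomes. The nuclear receptor PPARα, activated by fatty acids in fasted liver, is known to induce Cyp4a10 and Cyp4a14, and their products are classic indicators of its activity in rodents. Other members act on signalling lipids such as arachidonic acid and leukotriene B4, and mouse Cyp4a12a is known as a male-biased enzyme.

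Several members are close copies, which limits how far their counts can be assigned to a gene. In an alignment of annotated coding sequences (GENCODE M21), Cyp4a10 was 96.6% identical to Cyp4a31 and 97.2% identical to Cyp4a32, with 52 and 43 differing bases over 1530 bases. Cyp4a12a and Cyp4a12b were 98.5% identical, with 23 differing bases over 1527. Cyp4a14 was less close, at 75.6% identity to Cyp4a10, and the 3 Cyp4f genes shared between 74.8% and 80.0%. The coding stretch around the cysteine that holds the haem iron shows this grading. It is printed 5′ to 3′ in the sense of the gene from the GENCODE M21 transcripts, with capitals for bases that differ from Cyp4a10.
Cyp4a10: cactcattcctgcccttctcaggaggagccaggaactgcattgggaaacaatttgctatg
Cyp4a31: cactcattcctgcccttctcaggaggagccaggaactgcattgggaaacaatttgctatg
Cyp4a32: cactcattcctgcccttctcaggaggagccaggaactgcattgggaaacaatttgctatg
Cyp4a14: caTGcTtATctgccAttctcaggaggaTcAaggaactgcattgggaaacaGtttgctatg
Cyp4a12a: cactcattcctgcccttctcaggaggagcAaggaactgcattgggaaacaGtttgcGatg
Cyp4a12b: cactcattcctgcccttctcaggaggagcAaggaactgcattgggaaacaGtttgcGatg
Cyp4f13: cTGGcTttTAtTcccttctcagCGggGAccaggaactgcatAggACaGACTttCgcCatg
Cyp4f14: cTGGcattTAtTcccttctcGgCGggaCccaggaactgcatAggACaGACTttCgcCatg
Cyp4f15: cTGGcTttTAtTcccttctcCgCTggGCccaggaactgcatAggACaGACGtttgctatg
Cyp4v3: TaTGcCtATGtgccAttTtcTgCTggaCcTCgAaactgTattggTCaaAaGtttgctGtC

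Over these 60 bases Cyp4a31 and Cyp4a32 had no difference from Cyp4a10, Cyp4a14 had 9, each Cyp4a12 copy had 3, and the Cyp4f genes and Cyp4v3 had between 19 and 23. The Cyp4a12 copies were identical to each other here. The coding stretch of 60 bases with the most differences between the Cyp4a12 copies starts at coding base 624 and ends at base 683. It shows how few bases are available to tell them apart, with capitals for the 4 bases of Cyp4a12b that differ from Cyp4a12a.
Cyp4a12a: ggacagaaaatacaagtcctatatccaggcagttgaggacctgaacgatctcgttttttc
Cyp4a12b: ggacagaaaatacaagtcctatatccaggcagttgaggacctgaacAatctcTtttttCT
The corresponding stretch for Cyp4a10, Cyp4a31 and Cyp4a32 covers coding bases 200 to 259, where Cyp4a31 has 2 and Cyp4a32 has 9 bases that differ from Cyp4a10, again in capitals.
Cyp4a10: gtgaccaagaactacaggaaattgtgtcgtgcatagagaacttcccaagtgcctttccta
Cyp4a31: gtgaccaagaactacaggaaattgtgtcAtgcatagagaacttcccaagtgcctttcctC
Cyp4a32: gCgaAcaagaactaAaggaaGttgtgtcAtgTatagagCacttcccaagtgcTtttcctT

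Of all stretches of 50 bases in the longest annotated transcript, 30.5% of those of Cyp4a10, 21.8% of Cyp4a31, 46.8% of Cyp4a32, 48.9% of Cyp4a12a and 49.4% of Cyp4a12b also occurred in a transcript of another gene. For Cyp4a14 the share was 0.2%, and for the Cyp4f genes it lay between 2.5% and 2.7%. Cyp4v3 had 7.0%. Reads from the shared stretches may have been split between copies or dropped, and sums over copies are given beside the single genes for that reason.

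The libraries held between 29574528 and 36026753 counts. Levels below are counts scaled to a common library size (CPM). The limit that a count of 0 allows was taken as 3 counts. These correspond to between 0.0833 and 0.101 CPM of the library totals, without the further scaling used for the levels. Fasted replicate 3 stood apart: the second principal component of log2 CPM, with 8.89% of the variance, placed it at -39.5, against 20.5 and 17.1 for fasted replicates 1 and 2. Hepatocyte markers were high throughout, with albumin (Alb) between 71020 and 87290 CPM in fasted livers and between 66730 and 83860 CPM in refed livers. The summed 8 neutrophil markers were 1.05, 1.93 and 200.8 CPM in fasted replicates 1, 2 and 3, against 0.197 to 0.442 CPM in refed livers. The log2 fold changes of all 10 members without fasted replicate 3 are given below. The 6 stellate cell markers summed to between 184 and 266 CPM in fasted livers and between 98.1 and 115 CPM in refed livers. Dcn, a matrix proteoglycan gene, made up most of that sum and rose (184 ± 34.5 CPM in fasted and 68.4 ± 4.84 CPM in refed livers, SD, n = 3 each), Lrat, which makes retinyl esters, fell (3.33 ± 1.29 CPM in fasted and 11.2 ± 2.15 CPM in refed livers, SD, n = 3 each), and the other 4 did not pass, with a list median log2 fold change of 0.09. The 7 hepatocyte markers summed to between 117300 and 130500 CPM in fasted and between 94610 and 111800 CPM in refed livers. Singly they went both ways, with 3 higher, 1 lower and 3, Alb among them, that did not pass in edgeR. Tat, Ahsg and Apoa1 rose by 2.39, 1.14 and 0.85 on the log2 scale, and Ttr had a log2 fold change of -1.32. The 8 Kupffer cell markers summed to 17.9, 54.9 and 84.2 CPM in fasted replicates 1, 2 and 3, and to between 60.25 and 80.1 CPM in refed livers. The 8 sinusoidal endothelial markers summed to between 77.5 and 143.2 CPM in fasted and between 64.2 and 119.4 CPM in refed livers. For the 6 cholangiocyte markers the sums were 15.9 to 27.5 CPM in fasted and 26.1 to 44.15 CPM in refed livers. The part of these markers in the results below was not tested. No marker list of 9 had a gene at 0 in all libraries. Markers of kidney, an organ in which Cyp4a genes are also active, stayed near 0, with sums of 0.396 to 0.63 CPM in fasted livers and 0.725 to 2.02 CPM in refed livers over the 3 genes used.

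All 10 members passed the filter on low counts, and 9 of them passed edgeR's quasi-likelihood test at an adjusted p under 0.05. Cyp4a14, Cyp4a10, Cyp4a31, Cyp4a32, Cyp4a12b and Cyp4f15 rose in fasted livers, Cyp4f14, Cyp4a12a and Cyp4v3 fell, and Cyp4f13 did not pass. Such calls were common in this comparison: 59.4% of the 13248 genes tested were called, 29.2% as higher and 30.2% as lower. In each of the 10 members the values of the fasted and refed libraries did not overlap, which held for 67.2% of all tested genes. The size of the change stood further from this background. Cyp4a14, Cyp4a10, Cyp4a31 and Cyp4a32 were called and at least 4-fold higher, which applied to 4.48% of tested genes. Cyp4a14 and Cyp4a31 were at least 8-fold higher, which applied to 1.63%. Cyp4a31 and Cyp4a32 are close copies of Cyp4a10 and part of their counts may be its reads, so the 4 genes are not separate results. The members were also chosen with earlier results of these data known. In bulk liver RNA, a change in the number of cells of a type and a change in RNA per cell cannot be told apart.

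**Figure D1:**
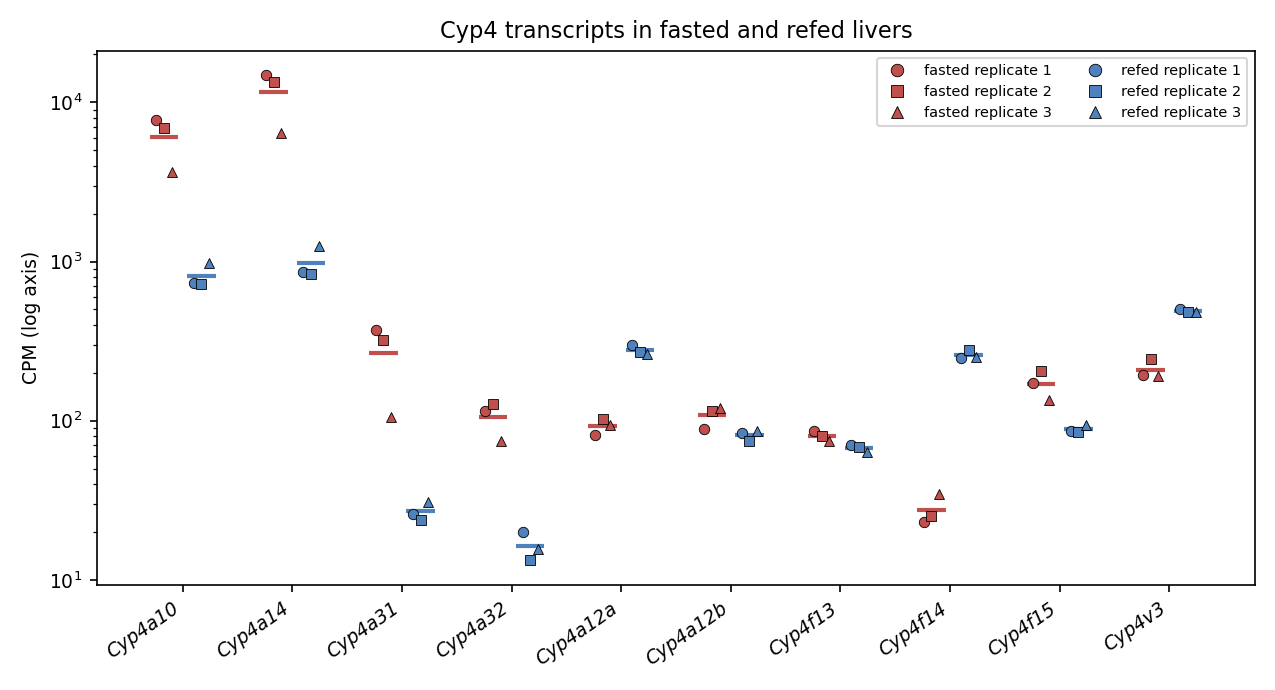
Level of each of the 10 Cyp4 genes (CPM, log axis) in each fasted and each refed library, with a bar at the group mean. The fasted libraries stand above the refed ones for Cyp4a14, Cyp4a10, Cyp4a31 and Cyp4a32 and below them for Cyp4a12a, Cyp4f14 and Cyp4v3, and fasted replicate 3 is the lowest fasted library of the 4 genes that rose most.

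The most abundant transcript of the family was that of Cyp4a14 (ENSMUSG00000028715, chromosome 4 from 115158805 to 115168747, mm9), a fatty acid hydroxylase and PPARα target. It had 14857, 13365 and 6466 CPM in fasted livers, against 864, 840.4 and 1249 CPM in refed livers. All fasted values lay above all refed values, and fasted replicate 3 was below the other fasted libraries. The means were 11562 ± 4476 CPM in fasted and 984 ± 229 CPM in refed livers (SD, n = 3 each). The log2 fold change was 3.55 (SE 0.35, 95% interval 2.74 to 4.37), that is 11.7-fold, with an adjusted p of 0.00011 in edgeR's quasi-likelihood test, and 3.85 without fasted replicate 3. Cyp4a14 took 1.37%, 1.20% and 0.621% of all counts in the fasted libraries, where it was gene number 5, 6 and 16 in order of counts. In the refed libraries it took 0.0926%, 0.0905% and 0.135% of counts and was number 143, 145 and 95.

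Cyp4a10 (ENSMUSG00000066072, chromosome 4 from 115190869 to 115206254) hydroxylates medium-chain fatty acids such as lauric acid. Its level was 7787, 6869 and 3634 CPM in fasted livers, against 729, 727 and 978 CPM in refed livers. As for Cyp4a14, fasted replicate 3 was the lowest fasted library and refed replicate 3 the highest refed library, with no overlap between groups. The means were 6096 ± 2181 CPM in fasted and 811 ± 144 CPM in refed livers (SD, n = 3 each), a log2 fold change of 2.91 (SE 0.31, adjusted p = 0.000133 in edgeR) or 3.18 without fasted replicate 3. The ratio of Cyp4a14 to Cyp4a10 counts was 1.91, 1.95 and 1.78 in fasted libraries and 1.19, 1.16 and 1.28 in refed libraries. The ratios did not overlap between groups, and the exact two-sided permutation test gave p = 0.10, the smallest it can give with 3 against 3. Another annotated gene, AL627182.1, lies within Cyp4a10, but with 27, 26 and 5 counts in fasted and 3, 4 and 2 in refed libraries its counts were few beside the 119336 to 259540 of Cyp4a10 in fasted and 23106 to 34427 in refed libraries.

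Cyp4a31 and Cyp4a32, close copies of Cyp4a10, had far fewer counts and rose as well. Cyp4a31 (ENSMUSG00000028712, chromosome 4 from 115236254 to 115251618) had 371, 321 and 106 CPM in fasted livers, against 26.0, 23.6 and 31.0 CPM in refed livers. Cyp4a32 (ENSMUSG00000063929, chromosome 4 from 115273574 to 115294207) had 115, 128 and 74.1 CPM in fasted livers, against 19.9, 13.3 and 15.6 CPM in refed livers. Neither gene's groups overlapped, and in both the lowest fasted library was fasted replicate 3. The log2 fold change was 3.30 for Cyp4a31 (SE 0.45, edgeR adjusted p = 0.00061) and 2.70 for Cyp4a32 (SE 0.24, edgeR adjusted p = 7.52e-05). Because reads of these copies may be assigned to each other, the sum over Cyp4a10, Cyp4a31 and Cyp4a32 is given as well. It was 6469 ± 2349 CPM in fasted and 854 ± 147 CPM in refed livers (SD, n = 3 each), with a log2 fold change of 2.92 (SE 0.31, edgeR adjusted p = 0.000136).

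The Cyp4a12 copies did not move together. Cyp4a12a (ENSMUSG00000066071, chromosome 4 from 114971651 to 115005420), which hydroxylates arachidonic acid, had 81.2, 103 and 94.4 CPM in fasted livers, against 298, 272 and 262 CPM in refed livers. The groups were well apart, and fasted replicate 3 lay between the other fasted libraries. Its means were 92.9 ± 11.1 CPM in fasted and 277 ± 18.5 CPM in refed livers (SD, n = 3 each), and its log2 fold change was -1.58 (SE 0.14), a 2.98-fold lower level with an edgeR adjusted p of 4.79e-05. Cyp4a12b (ENSMUSG00000078597, chromosome 4 from 115084229 to 115111639) had 88.9, 115 and 119.9 CPM in fasted livers, against 83.4, 74.6 and 86.2 CPM in refed livers. Fasted replicate 1 lay only just above the highest refed library. The log2 fold change was 0.41 (SE 0.14, 95% interval 0.09 to 0.73, edgeR adjusted p = 0.0342), and this call was lost with library totals as the scaling (0.20, adjusted p = 0.264) and without fasted replicate 2 (0.37, 0.0904), refed replicate 1 (0.42, 0.0815), refed replicate 2 (0.34, 0.143) or refed replicate 3 (0.44, 0.0642). The small gene Gm12837 lies within Cyp4a12b, with 16, 6 and 8 counts in fasted and 1, 0 and 0 in refed libraries.

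The count of Cyp4a12a over that of Cyp4a12b was 0.913, 0.895 and 0.788 in fasted libraries and 3.57, 3.64 and 3.04 in refed libraries. The ratio was below 1 in every fasted library and above 3 in every refed one, with an exact two-sided permutation p of 0.10, the smallest possible. Summed, the copies had 201 ± 26.9 CPM in fasted and 358 ± 19.5 CPM in refed livers (SD, n = 3 each), with a log2 fold change of -0.83 (SE 0.14, edgeR adjusted p = 0.00133). The sum does not depend on how reads were divided between the copies, but reads dropped as ambiguous would be missing from it.

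**Figure D2:**
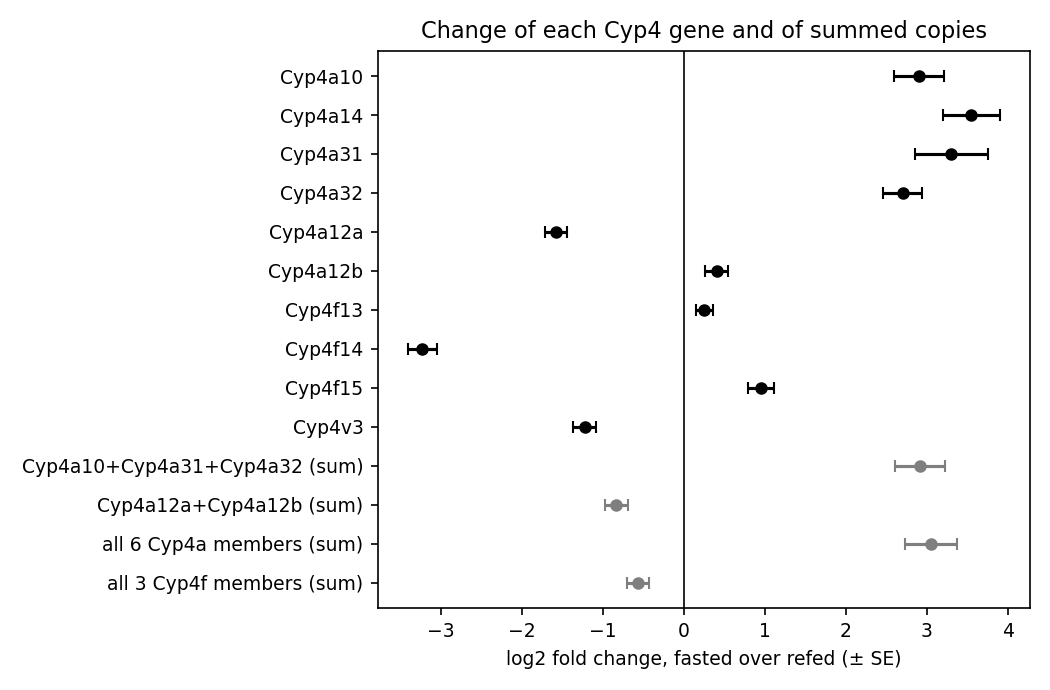
Log2 fold change, fasted over refed, of each Cyp4 gene (black) and of the summed close copies and subfamilies (grey) in edgeR, with bars for ± 1 SE. Values run from 3.55 for Cyp4a14 to -3.23 for Cyp4f14, and the Cyp4a12 copies stand on opposite sides of 0 with their sum at -0.83.

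The 6 Cyp4a genes together took 2.16%, 1.88% and 1.01% of all counts in fasted libraries, against 0.217%, 0.210% and 0.283% in refed libraries. The log2 fold change of their sum was 3.05 (SE 0.32, edgeR adjusted p = 0.000128), or 8.30-fold. The makeup of the subfamily also differed. On the scale of counts per kb of gene length, the Cyp4a12 copies made up 0.558%, 0.799% and 1.56% of the Cyp4a signal in fasted libraries and 16.3%, 15.4% and 11.3% in refed libraries. The shares did not overlap, and the exact two-sided permutation p was 0.10, the smallest possible. Cyp4a14 made up 69.4% ± 1.08 in fasted and 51.6% ± 2.82 in refed libraries, and Cyp4a10 27.0% ± 0.861 in fasted and 31.3% ± 0.533 in refed libraries (SD, n = 3 each). These shares rest on the deposited lengths, 1.5005 kb for Cyp4a14 against 2.496 kb for its longest transcript. With longest transcripts, a choice made after seeing the data, Cyp4a14 and Cyp4a10 had 4632 and 2891 CPM per kb in fasted livers. In refed livers they then had 394 and 385 CPM per kb, so the lead of Cyp4a14 there depends on the length used. The share depends on every member in the total, and Cyp4a14, Cyp4a10, Cyp4a31 and Cyp4a32 all rose.

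**Figure D3:**
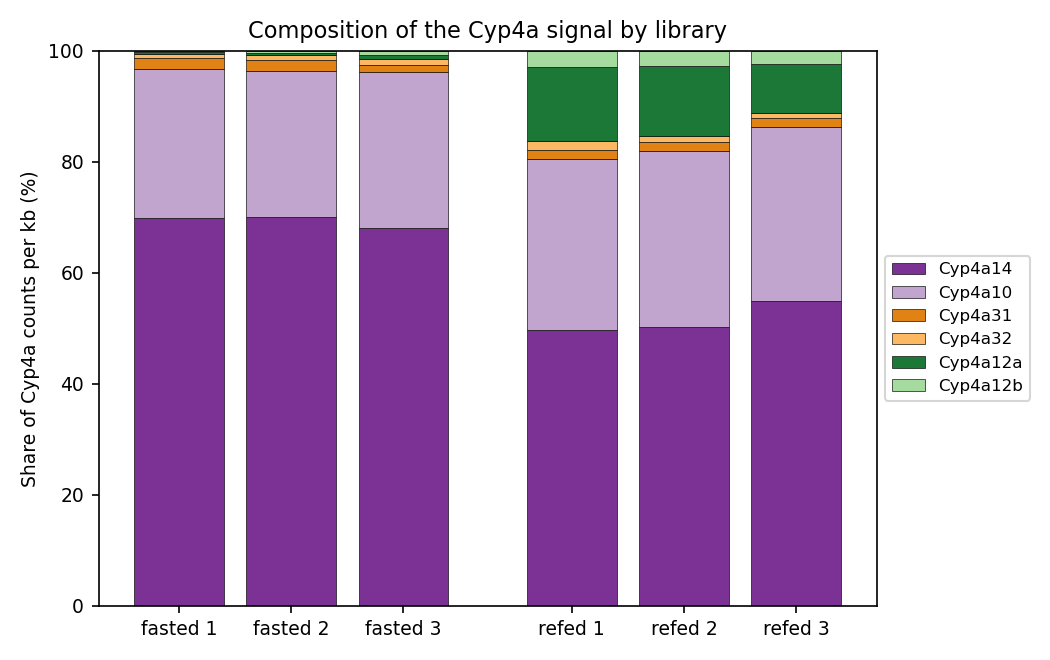
Share of each Cyp4a gene in the summed Cyp4a counts per kb of deposited gene length (percent) in each library, fasted libraries left of refed ones. Cyp4a14 and Cyp4a10 fill nearly the whole bar in fasted libraries, while the Cyp4a12 copies take between 11.3% and 16.3% in refed libraries and between 0.558% and 1.56% in fasted ones.

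Cyp4f14 (ENSMUSG00000024292, chromosome 17 from 33042016 to 33054023), the mouse liver hydroxylase of leukotriene B4, had the deepest fall of the 10 members. It had 23.0, 25.1 and 34.4 CPM in fasted livers, against 248, 277 and 250.1 CPM in refed livers. Every fasted value was far below every refed value, and fasted replicate 3 was the highest of its group. The means were 27.5 ± 6.07 CPM in fasted and 258 ± 16.4 CPM in refed livers (SD, n = 3 each), and the log2 fold change was -3.23 (SE 0.18, 95% interval -3.64 to -2.82), a 9.38-fold lower level with an edgeR adjusted p of 8e-06. In order of counts it was gene number 4582, 4273 and 3449 in fasted libraries and 492, 436 and 485 in refed libraries.

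Its neighbours on chromosome 17 did not share this fall. Cyp4f15 (ENSMUSG00000073424, from 32822572 to 32840297) rose, with 172, 205 and 136 CPM in fasted livers against 85.6, 84.7 and 94.5 CPM in refed livers. The groups did not overlap, and the log2 fold change was 0.95 (SE 0.16, edgeR adjusted p = 0.00126). Cyp4f13 (ENSMUSG00000024055, from 33061633 to 33084347) had 86.0, 80.5 and 74.8 CPM in fasted livers, against 70.2, 68.6 and 63.3 CPM in refed livers. Its groups did not overlap either, but the difference was small. The log2 fold change was 0.26 (SE 0.11, 95% interval 0.01 to 0.50) with an edgeR adjusted p of 0.066, and without fasted replicate 3 it was 0.31 with an adjusted p of 0.0233. The sum over the 3 Cyp4f genes was 279 ± 32.7 CPM in fasted and 414 ± 14.4 CPM in refed livers (SD, n = 3 each), with a log2 fold change of -0.57 (SE 0.14, edgeR adjusted p = 0.00721).

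Cyp4v3 (ENSMUSG00000079057, chromosome 8 from 46355025 to 46418570) is the mouse counterpart of human CYP4V2, which is mutated in Bietti crystalline dystrophy of the retina. It had 193, 244 and 190.4 CPM in fasted livers, against 501, 485 and 479 CPM in refed livers. The refed libraries were close to each other and all far above the fasted ones. The log2 fold change was -1.22 (SE 0.14, edgeR adjusted p = 0.000206), a 2.34-fold lower level. Cyp4v3 overlaps most of Klkb1, the gene of plasma prekallikrein, which runs from 46354796 to 46380213. Since strand handling in the counting is not given, reads from the overlap cannot be told apart. They may have been dropped or counted for either gene. Klkb1 had 84, 84 and 187 counts in fasted libraries and 420, 462 and 495 in refed libraries.

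**Figure D4:**
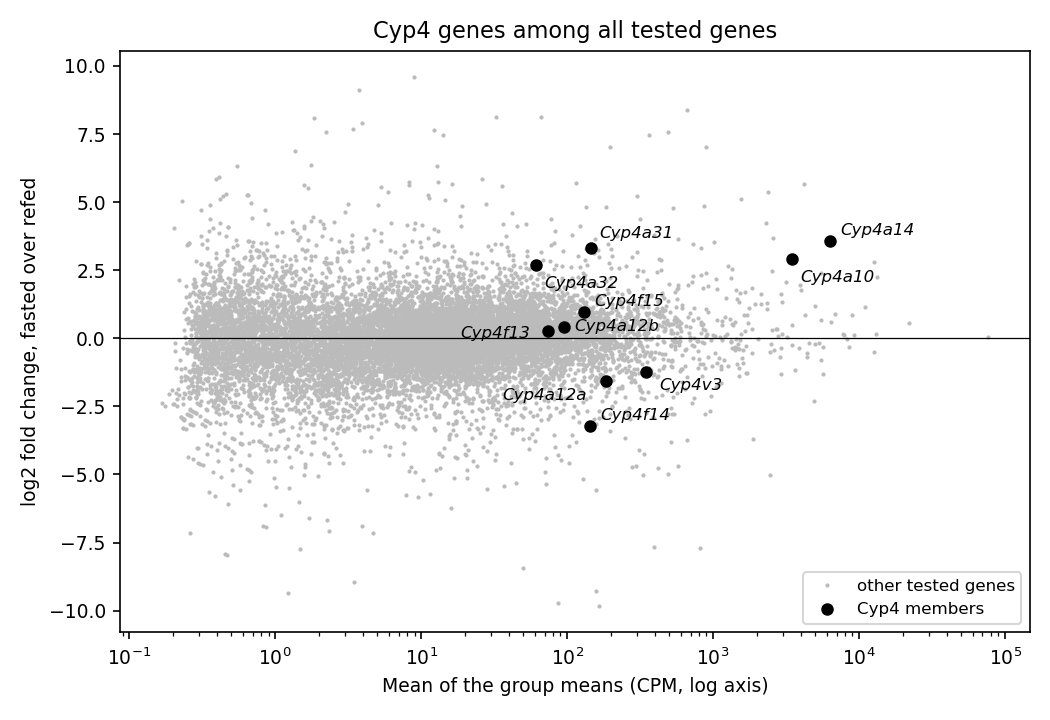
Log2 fold change, fasted over refed, against the mean of the group means (CPM, log axis) for all tested genes, with the 10 Cyp4 genes in black. Cyp4a14 and Cyp4a10 stand at the right, among the most abundant transcripts, and Cyp4f14 and Cyp4f13 lie apart at -3.23 and 0.26 despite lying side by side on chromosome 17.

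Per kb of the deposited gene length, the order of levels was not the same in the 2 groups. In fasted livers the mean levels were 7706 CPM per kb for Cyp4a14, 2971 for Cyp4a10, 206 for Cyp4a31, 127 for Cyp4f15, 93.3 for Cyp4a32, 63.7 for Cyp4v3, 57.9 for Cyp4f13, 48.0 for Cyp4a12a, 45.1 for Cyp4a12b and 12.5 for Cyp4f14. Neighbours from Cyp4a31 down to Cyp4f13, and the Cyp4a12 copies, overlapped in the range of their 3 libraries, while Cyp4a14, Cyp4a10 and Cyp4f14 stood clear of their neighbours. In refed livers the means were 656 CPM per kb for Cyp4a14, 395 for Cyp4a10, 149 for Cyp4v3, 143 for Cyp4a12a, 118 for Cyp4f14, 65.4 for Cyp4f15, 48.5 for Cyp4f13, 34.0 for Cyp4a12b, 20.8 for Cyp4a31 and 14.3 for Cyp4a32. There the ranges overlapped between Cyp4v3 and Cyp4a12a and between no other neighbours. On this length Cyp4f14 stood last in fasted livers and number 5 in refed livers. The deposited length equalled the median length of the annotated GENCODE M21 transcripts for 4 of the 10 genes, and for Cyp4a14 it was 1.5005 kb, against 2.496 kb for the longest transcript. With the longest transcript as the length, an alternative chosen after seeing the data, Cyp4a14 had 4632 CPM per kb and Cyp4a10 2891 in fasted livers, and 394 and 385 in refed livers, and the ranges of the libraries overlapped in both groups. With that length Cyp4f14 was number 4 in refed livers, at 116 CPM per kb against 114 for Cyp4a12a, with overlapping ranges, and still last in fasted livers.

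Fasted replicate 3 departed from the other fasted libraries most in the members with the highest fold changes. Its log2 CPM minus the mean of fasted replicates 1 and 2 was -1.01 for Cyp4a10, -1.12 for Cyp4a14, -1.70 for Cyp4a31 and -0.71 for Cyp4a32. The same difference was 0.04 for Cyp4a12a, 0.24 for Cyp4a12b, -0.15 for Cyp4f13, 0.51 for Cyp4f14, -0.47 for Cyp4f15 and -0.19 for Cyp4v3, with a median over all tested genes of 0.01. With fasted replicate 3 left out, the log2 fold changes were 3.85 for Cyp4a14, 3.18 for Cyp4a10, 3.69 for Cyp4a31, 2.91 for Cyp4a32, 1.10 for Cyp4f15, 0.33 for Cyp4a12b, 0.31 for Cyp4f13, -1.16 for Cyp4v3, -1.58 for Cyp4a12a and -3.42 for Cyp4f14. None of the 10 changed sign, and the call changed only for Cyp4f13, which passed there. The same library held the neutrophil transcripts described above, and the relation between these measures was not tested. Cyp4f18, a leukotriene B4 hydroxylase known from mouse neutrophils, had 4, 6 and 4 counts in fasted libraries and 0, 2 and 1 in refed libraries, too few for a test and no higher in fasted replicate 3 than in the others.

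Genes on which the family acts together or depends were described from lists chosen with earlier results of these data known. The counts of each list stand against a background of 29.2% of all tested genes called higher and 30.2% called lower. The list of alcohol and aldehyde dehydrogenases holds enzymes of families that can oxidise omega-hydroxy fatty acids to dicarboxylic acids. Which of them act on such substrates was not examined here. Of the 10 tested, 4 fell and 6 did not pass, with a median log2 fold change of -0.46 against 0.00 for all tested genes. The count that fell was 2 without refed replicate 2 or refed replicate 3. Adh4, an alcohol dehydrogenase, had 14.9 ± 3.22 CPM in fasted and 96.0 ± 4.23 CPM in refed livers (SD, n = 3 each), a log2 fold change of -2.69 (edgeR adjusted p = 1.22e-05). Of 18 genes of peroxisomal dicarboxylic acid oxidation, 5 rose, 3 fell and 10 did not pass, with a median of 0.11. Without fasted replicate 3, 10 rose and 3 fell, with a median of 0.42. The median was below 0 without fasted replicate 1 (-0.08) or fasted replicate 2 (-0.06) with limma-voom (-0.02, with 3 higher and 4 lower) and with library totals as the scaling (-0.12). With any of the other 5 libraries left out in turn, 3 rose and between 1 and 3 fell, with 1 lower gene without refed replicate 2 or refed replicate 3. Slc27a2, which activates very long-chain fatty acids, rose by 1.25 on the log2 scale (edgeR adjusted p = 0.000314), and the peroxisomal thiolase Acaa1b had a log2 fold change of -0.82 (edgeR adjusted p = 0.00128).

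Of 6 genes listed as electron donors or partners of microsomal P450 enzymes, 1 rose, 3 fell and 2 did not pass. The cytochrome b5 gene Cyb5 was among those that did not pass, with a log2 fold change of 0.15 (edgeR adjusted p = 0.337). The gene that rose was Por, the reductase that all microsomal P450 enzymes use, with 2297 ± 273 CPM in fasted and 393 ± 35.6 CPM in refed livers (SD, n = 3 each) and a log2 fold change of 2.55 (edgeR adjusted p = 1.39e-05). Cyb5b, a cytochrome b5 located mainly at mitochondria, had the lowest p of those that fell, with a log2 fold change of -2.65 (edgeR adjusted p = 7.97e-06). Of PPARα and 10 of its partners, 7 rose, 1 fell and 3 did not pass, with a median of 0.96. Ppara itself had 80.8 ± 28.5 CPM in fasted and 65.9 ± 27.9 CPM in refed livers (SD, n = 3 each), with overlapping groups, a log2 fold change of 0.29 and an edgeR adjusted p of 0.511. The retinoid receptor Rxrb rose by 1.90 on the log2 scale (edgeR adjusted p = 1.11e-05).

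PPARα target genes outside the Cyp4 family had a median log2 fold change of 1.52. Of these 20, 9 rose, 3 fell and 8 did not pass, where 59.4% of all tested genes were called, 29.2% higher and 30.2% lower. Without fasted replicate 3 the counts were 16 and 3 with a median of 1.93. In that setting 4281 of 13559 tested genes were higher and 4431 lower. The counts were 4 higher and 3 lower without fasted replicate 1, fasted replicate 2, refed replicate 2 or refed replicate 3, and 5 higher and 3 lower without refed replicate 1. All 20 lay lower in fasted replicate 3 than in the mean of the other fasted libraries, by a median of -2.08 on the log2 scale, beside the -1.12 of Cyp4a14. Of all 13248 tested genes, 6502 lay lower there. The same held for all 18 peroxisomal genes (median -1.11), some of which are also on this list. It held for 7 of 10 dehydrogenases (median -0.80) and 5 of 11 genes of PPARα and its partners (median 0.01). Cpt1a, the gatekeeper of mitochondrial fatty acid oxidation, rose by 2.08 on the log2 scale (edgeR adjusted p = 0.000374), and Mgll, a monoglyceride lipase, had a log2 fold change of -1.96 (edgeR adjusted p = 0.000791). Ehhadh, the peroxisomal bifunctional enzyme, illustrates the spread, with 2392, 2466 and 294.6 CPM in fasted livers against 301.6, 417.6 and 425.3 CPM in refed livers. Its groups overlapped, while those of Cpt1a and Mgll on the same list did not, nor did those of Cyp4a10 and Cyp4a14. Of all tested genes, 67.2% had groups that did not overlap. Ehhadh was named after its values were seen.

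**Figure D5:**
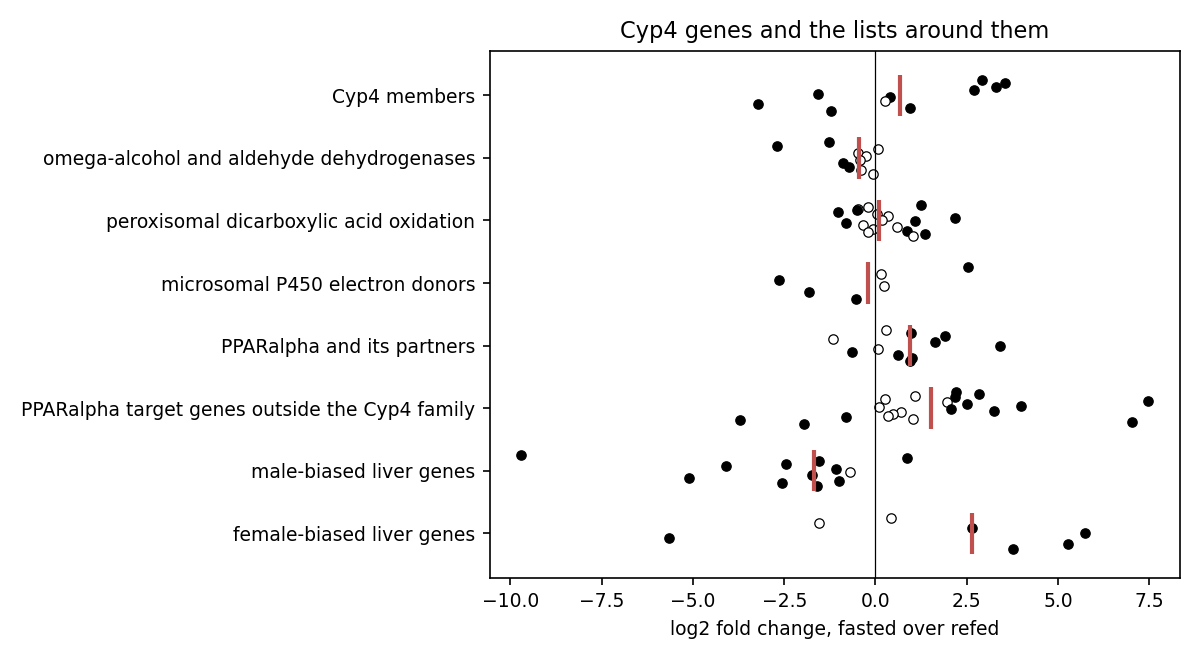
Log2 fold change, fasted over refed, of the Cyp4 members (top row) and of each tested gene in 7 related lists (a row each). Filled points passed edgeR's test, open points did not, and the red bar is the median of the row. The list medians run from -1.68 for male-biased liver genes to 2.65 for the 7 tested female-biased liver genes, and in every row points lie on both sides of 0.

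Since Cyp4a12a is male-biased, genes with a known sex bias in mouse liver were set beside it. Of all tested genes 30.2% were called lower and 29.2% higher. Of 12 male-biased genes, 10 fell, 1 rose and 1 did not pass, with a median log2 fold change of -1.68 beside the -1.58 of Cyp4a12a. Hsd3b5, a steroid dehydrogenase of male liver, had 0.205 ± 0.141 CPM in fasted and 173 ± 33.1 CPM in refed livers (SD, n = 3 each; edgeR adjusted p = 3.96e-06). Its fasted values of 0.06, 0.342 and 0.213 CPM were close to the detection limit, so the size of its fall is uncertain. Cyp2d9 went the other way, with 2101 ± 54.3 CPM in fasted and 1160 ± 59.0 CPM in refed livers (SD, n = 3 each; edgeR adjusted p = 0.000928). Of 12 female-biased genes 7 were tested, of which 4 rose, 1 fell and 2 did not pass, with a median of 2.65. That median rests on the genes that passed the filter on low counts. Over 11 genes it was 0.38 with no filter beyond 1 read and 0.41 with DESeq2, with 4 higher in each case. Fmo2, a flavin monooxygenase, had 158 ± 29.6 CPM in fasted and 25.2 ± 6.61 CPM in refed livers (SD, n = 3 each; edgeR adjusted p = 5.73e-05). The gene that fell, A1bg, was close to the detection limit, with 0, 0 and 0.0305 CPM in fasted livers against 0.41, 0.591 and 1.08 CPM in refed livers.

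In the authors' deposited table all 10 members had an adjusted p under 0.05, as had 39.4% of the 22432 genes with a value there. The log2 fold changes in the authors' deposited table were 3.32 for Cyp4a14, 2.75 for Cyp4a10, 2.96 for Cyp4a31, 2.60 for Cyp4a32, -1.56 for Cyp4a12a and 0.40 for Cyp4a12b. For the others the authors' deposited table gave 0.25 for Cyp4f13, -3.17 for Cyp4f14, 0.94 for Cyp4f15 and -1.21 for Cyp4v3. The signs were those found with edgeR for every member, and the difference in calls concerned Cyp4f13, whose adjusted p was 0.0192 in the authors' deposited table.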

How the data were processed

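RNA sequencing counts of 3 fasted and 3 refed mouse liver samples were analysed. The deposited table holds, per the file headers, the authors' raw counts of reads for each gene, a normalized signal (the count divided by a size factor per library), the same signal per kb of gene length, a log2 fold change, and a p-value with its adjusted value. Tools in the submitters' processing notes are HTSeq 0.5.4p3, TopHat2 2.0.10, DESeq2 1.0.19 and Bowtie2 2.1.0, with build mm9. The annotation release, read length, strand and counting settings were not given in the sources used here. Positions come from the deposited table (mm9) and describe whole genes, since the counts do not separate exons from UTRs. The GRCm38 annotation (GENCODE M21) served only for transcript sequences and lengths.

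Counts were fitted for all genes with edgeR 4.0.16 in R 4.3.3: filterByExpr with a minimum count of 10 (13248 kept, 10383 removed), TMM factors, robust quasi-likelihood fits with group as the only term, and Benjamini-Hochberg adjustment over all genes tested, called under 0.05. Positive log2 fold changes mean higher in fasted livers, and the SE is the log2 fold change over the square root of F. CPM use TMM-scaled library sizes, and intervals are at 95%. For log2 CPM in profiles, principal components and the differences of fasted replicate 3, 0.5 CPM was added first. Ratios and shares were compared by exact permutation tests. The fit was tested on simulated counts. The chi-square per gene between libraries was 26.3 or more, so no library was treated as a duplicate. Alternatives were DESeq2 1.42.0, limma-voom (limma 3.58.1), other scalings and filters, glmTreat against a log2 change of 0.5, a replicate block and leaving out each of the libraries. The members and lists were chosen with earlier results of these data known. The rule named all 10 members, the 3 most abundant other Cyp4 genes, the called list gene of lowest p in each direction and the 3 genes nearest in profile to Cyp4a14, Cyp4a12a and Cyp4f14. A list gene that the rule named is not reported here. Cyb5a and Adgre1 were matched by gene ID under older symbols, and 3 kidney list genes were not analysed here.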

Additional observations from a re-analysis of the deposited data

How the results depend on the processing

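Of 140 member results under 14 alternatives each, 132 kept their direction and side of the threshold, and none changed direction. The 8 members other than Cyp4a12b and Cyp4f13 kept both in every alternative. Cyp4a12b lost its call in 7 alternatives: those given in the report, glmTreat against 0.5 (adjusted p = 0.686) and the replicate block (0.40, adjusted p = 0.0573). The labels do not say whether same-numbered samples were paired. Deviations of same-numbered fasted and refed samples correlated at -0.04, -0.04 and -0.09, and those of differently numbered samples between -0.09 and 0.12. With 3 samples in each group, such correlations cannot settle whether there was a pairing. The block changed no other member's call, gave 7340 genes called (3558 higher, 3782 lower) and left 7 PPARα targets called, as did no count filter. The block put the peroxisomal median at -0.01. Peroxisomal genes called were 5 with no count filter. With limma-voom 3 PPARα targets were called higher and 3 lower (median 0.78). With glmTreat 4929 genes were called, 2338 higher and 2591 lower, and the summed Cyp4f genes (-0.57) had an adjusted p of 0.254. With library totals the split was 2873 higher and 5074 lower against 3867 and 3999, and the median of all genes lay at -0.21, so changes are relative to that shift. With Cyp4a14 and Cyp4a10 left out of the total, the difference in Cyp4a12 share was -57.1 percentage points against -13.4, in a total where Cyp4a31 and Cyp4a32 also rose. With each library left out in turn, members called ranged from 8 to 10 (5 to 7 higher, 3 lower throughout). Genes called ranged from 6562 to 8712 (3151 to 4281 higher, 3411 to 4431 lower). PPARα targets called ranged from 7 to 19, peroxisomal genes from 4 to 13, dehydrogenases from 2 to 5 and PPARα partners from 8 to 9. Female-biased genes ranged from 5 to 6, male-biased genes from 11 to 12 and electron donors or partners from 3 to 4. The share difference ranged from -14.9 to -12.4, and the summed log2 fold changes from 2.71 to 3.19 for Cyp4a10 with its copies, from -0.89 to -0.72 for the Cyp4a12 copies, from 2.84 to 3.33 for all Cyp4a and from -0.65 to -0.48 for Cyp4f. The cause of these differences was not tested.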

Other observations

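Among the 11 Cyp4 genes of the table that are no members, the most abundant was Cyp4f17. It had 24.1, 20.1 and 13.5 CPM in fasted livers against 5.99, 6.22 and 5.54 CPM in refed livers. It rose by 1.70 on the log2 scale (SE 0.21, edgeR adjusted p = 0.000271), with no overlap between groups. Cyp4f16 had 3.20 ± 0.331 CPM in fasted and 1.45 ± 0.189 CPM in refed livers (SD, n = 3 each) and rose by 1.14 (edgeR adjusted p = 0.00171). Both lie on chromosome 17 beside the Cyp4f genes described above. Cyp4b1, which lies beside Cyp4a32 on chromosome 4, had 6.70 ± 0.981 CPM in fasted and 4.96 ± 1.38 CPM in refed livers (SD, n = 3 each; edgeR adjusted p = 0.141). Cyp4x1 and Cyp4f39 did not pass, 4 genes had at most 8 counts in any library, and Cyp4a29-ps and Cyp4f40 had no read.

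The genes whose log2 CPM profile over the 6 libraries lay nearest to that of a member were found among 8683 genes by the root mean square difference of centred profiles. For these profiles 0.5 CPM was added before the log2, which makes changes look smaller in genes near that level. For Cyp4a14 they were Gm11695 (0.188), Agxt2l1 (0.193), a phospholyase gene, and Casz1 (0.230), a zinc finger gene. In refed livers Gm11695 had 0.628 ± 0.247 CPM and Casz1 0.324 ± 0.0489 CPM (SD, n = 3 each), near the 0.5 CPM added. Their log2 fold changes in edgeR were 4.22 and 4.90, larger than the 3.55 of Cyp4a14, so their nearness rests partly on the added value. Agxt2l1 had 1702, 1696 and 1080 CPM in fasted livers against 126, 137 and 183 CPM in refed livers, and like Cyp4a14 was lowest among fasted libraries in replicate 3. For Cyp4a12a the nearest were Sfxn5 (0.0518), Rprd1a (0.0713) and Atat1 (0.0744). Sfxn5, a mitochondrial carrier, had 8.58, 10.1 and 9.17 CPM in fasted livers against 30.0, 27.3 and 25.5 CPM in refed livers. For Cyp4f14 they were Gpr155 (0.0742), Mmab (0.109) and Mblac2 (0.138). Mblac2 had only 0.985 ± 0.256 CPM in fasted livers (SD, n = 3), and its log2 fold change in edgeR was -3.85, beside -3.23 for Cyp4f14. Gpr155 had 3.45, 4.19 and 5.73 CPM in fasted livers against 44.5, 43.8 and 45.4 CPM in refed livers. Mmab, an enzyme of vitamin B12 metabolism, had 2.04, 2.67 and 4.11 CPM in fasted livers against 29.4, 29.9 and 31.6 CPM in refed livers.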
